A study of Mus musculus with 7 samples.

Results

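A set of 6 genes of vascular signalling was examined in cultured neural stem and progenitor cells (NSPCs) of the adult mouse dentate gyrus (DG) and in whole DG tissue: the angiopoietins Angpt1 and Angpt2, the angiopoietin-like genes Angptl2 and Angptl4, and the receptors Tek (also called Tie2) and Tie1. They are 6 of the 50600 entries of the bulk table, and 4 of them (Angpt1, Angpt2, Angptl2 and Tek) were followed in the single-cell table of 15536 genes. Angptl4 and Tie1 were not analysed in single cells. The set was chosen on the difference between cultures and tissue in these same libraries, so that difference is described for the 6 genes without a test.

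Angiopoietins are secreted ligands of Tek, a receptor tyrosine kinase of endothelial cells. Angpt1, made in many tissues by cells around the vessel, activates Tek and keeps vessels quiescent, whereas Angpt2, stored and released by endothelial cells themselves, mostly opposes Angpt1 and can also act as a weak agonist. Tie1 is a related receptor with no established high-affinity angiopoietin ligand, which pairs with Tek and modulates its signal. Angptl2 and Angptl4 share the protein architecture of angiopoietins but do not bind the Tie receptors: Angptl2 binds integrins and leukocyte immunoglobulin-like receptors, and Angptl4 inhibits lipoprotein lipase.

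The bulk data were 4 libraries from primary cultures of C57Bl6J mice, 2 female (F1 and F2) and 2 male (M1 and M2), and 2 libraries of whole DG from 1 female (F1) and 1 male (M2) mouse of the same strain. The cultures came from mice aged 6 to 8 weeks, were at passage 6 to 15, and grew adherent on laminin over poly-d-lysine in Neurobasal A with B27 lacking vitamin A and with epidermal growth factor and basic fibroblast growth factor, each at 20 ng/ml. The whole DG donors were 7 to 9 weeks old. A single-cell library pooled 3 such cultures, 2 female and 1 male, from mice aged 6 to 9 weeks.

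Counts per library summed to between 9917697 and 11747408 in the cultures and to 16676618 and 17351636 in whole DG. Culture libraries were made with the SMART-Seq HT kit and whole DG libraries with the NEBNext Ultra II Directional kit, so kit and group cannot be told apart. RNA integrity numbers in the labels were 10 for the cultures and above 8 for the tissue. Of 8 genes marking neural stem and progenitor cells, 7 were called higher and 1 lower in the cultures than in whole DG. Their summed level was 5401 to 5912 counts per 1000000 (CPM) against 755 to 792 CPM. The gene called lower was Sox2, at 6.11 CPM against 36.3 CPM (log2 -2.57, edgeR adjusted p = 8.89e-06). In the single-cell library Sox2 was detected in 47.7% of cells, at 168 of every 1000000 molecules counted. The cause of the gap between this level and the bulk level was not tested. Of all genes tested, 35.6% were called higher and 41.7% lower. All 6 granule neuron markers were called lower, with a summed level of 34.3 to 44.7 CPM in cultures against 8332 to 8841 CPM in whole DG. In whole DG, as in any bulk tissue, fewer cells of a type and less RNA per cell cannot be told apart.

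The coding sequences are shown here because the 2 ligands, the 2 angiopoietin-like genes and the 2 receptors are pairs of relatives whose reads could in principle be shared. Over aligned coding bases, Angpt1 and Angpt2 were identical at 952 of 1480 (64.3%), Angptl2 and Angptl4 at 58.8%, and Tek and Tie1 at 62.1%. The longest run of identical bases was 17, 15 and 18 bases in these pairs, and lay between 10 and 18 bases in all 15 pairs of the 6 genes, against reads of 150 bases. Each sequence is 90 bases of the coding strand, 5′ to 3′, from GENCODE M21 transcripts on GRCm38, and capitals mark the longest shared run of the pair. For Angpt1 and Angpt2 the run lies close to the end of the coding sequence, and both windows end with the stop codon, at chr15:42426970-42427059 and chr8:18692048-18692137 on the minus strands. The windows of the other 4 genes each join more than 1 exon.
Angpt1: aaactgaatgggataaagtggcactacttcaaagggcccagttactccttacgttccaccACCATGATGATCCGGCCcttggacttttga
Angpt2: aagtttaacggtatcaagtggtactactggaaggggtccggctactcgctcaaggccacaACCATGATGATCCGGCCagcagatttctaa
Angptl2: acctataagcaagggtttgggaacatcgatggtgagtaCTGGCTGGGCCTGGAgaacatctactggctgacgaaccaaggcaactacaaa
Angptl4: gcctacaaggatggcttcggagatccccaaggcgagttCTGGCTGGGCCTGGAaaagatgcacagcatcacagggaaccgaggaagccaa
Tek: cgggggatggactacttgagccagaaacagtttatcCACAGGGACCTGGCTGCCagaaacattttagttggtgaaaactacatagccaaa
Tie1: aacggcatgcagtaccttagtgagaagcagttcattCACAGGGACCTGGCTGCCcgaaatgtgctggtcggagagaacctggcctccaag

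Angpt2 was the abundant ligand of the cultures and was close to absent from the tissue libraries. It had 5109 counts in culture F1, 2207 in F2, 3897 in M1 and 2195 in M2, and 6 and 4 counts in whole DG F1 and M2. Scaled to library size, these were 422, 191, 372 and 214 CPM in the cultures and 0.387 and 0.243 CPM in whole DG. Every culture lay far above both tissue libraries, and among the cultures 1 of each sex (F1 and M1) was high and 1 of each sex (F2 and M2) was lower. Means were 300.0 CPM ± 115 (SD, n = 4) and 0.315 CPM ± 0.102 (SD, n = 2), a log2 difference of 9.86 (SE 0.61). The ratio of scaled counts was 965, with a 95% interval of 525 to 2014 that covers counting error only.

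Angpt1, the activating ligand, had similar means in the groups. Its counts were 62, 41, 154 and 54 in cultures F1, F2, M1 and M2, and 112 and 109 in whole DG. The corresponding CPM values were 5.12, 3.55, 14.7 and 5.27 against 7.23 and 6.63. Culture M1 was above the tissue and the other 3 cultures below it, so the groups overlapped, with means of 7.16 CPM ± 5.09 (SD, n = 4) and 6.93 CPM ± 0.425 (SD, n = 2). The log2 difference was 0.044 (SE 0.53), and -0.57 without culture M1. Angpt4, a further ligand of Tek that was chosen for mention after its values were seen, had 20, 6, 3 and 7 counts in the cultures and 0 and 1 in whole DG, too few to be tested.

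Angptl2, a secreted protein of inflammation and matrix remodelling, was low everywhere. It had 6, 34, 11 and 4 counts in cultures F1, F2, M1 and M2 (0.496, 2.95, 1.05 and 0.390 CPM) and 17 and 19 in whole DG (1.10 and 1.16 CPM). Culture F2 was above the tissue and the other cultures below it, so the groups overlapped. The log2 difference was 0.12 (SE 0.77) with all libraries and -0.80 without culture F2.

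Angptl4 was low in the cultures and higher in the tissue. Its counts were 0, 2, 4 and 2 in cultures F1, F2, M1 and M2, and 46 and 41 in whole DG, or 0 to 0.382 CPM against 2.97 and 2.49 CPM. All 4 cultures lay below both tissue libraries. The mean was 0.188 CPM ± 0.156 (SD, n = 4) in cultures and 2.73 CPM ± 0.336 (SD, n = 2) in whole DG, a log2 difference of -3.84 (SE 0.65). The scaled counts of whole DG were 15.1 times those of the cultures (95% counting interval 7.34 to 36.1).

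Both receptors were tissue genes in these data. Tek had 0, 25, 1 and 12 counts in cultures F1, F2, M1 and M2 (0, 2.17, 0.0955 and 1.17 CPM) and 150 and 157 counts in whole DG (9.68 and 9.55 CPM). The cultures with more Tek counts, F2 and M2, were the ones with less Angpt2, a description of 4 libraries. The log2 difference was -3.47 (SE 0.89), and -4.54 without culture F2, which held most of the culture counts. The tissue-to-culture ratio of scaled counts was 11.2 (7.99 to 16.2), an interval that leaves out the spread between cultures. Tie1 had 0, 0, 2 and 0 counts in the cultures and 106 and 74 in whole DG, or 6.84 and 4.50 CPM in the tissue. With only 2 counts in the cultures together, both in M1, the ratio of 125 had a counting interval of 34.1 to 1040. The groups did not overlap for either receptor.

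With edgeR's quasi-likelihood test and Benjamini-Hochberg adjustment over all 18088 genes tested, 4 of the 6 genes were past 0.05. This is given as a description, not as a test of the 6 genes. The background was 77.3% of all genes tested. One of the 6, Angpt2, was called higher in cultures (35.6% of all genes), and Angptl4, Tek and Tie1 were called lower (41.7% of all genes). Since the genes were chosen on this difference, nothing is read from these shares.

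**Figure D1:**
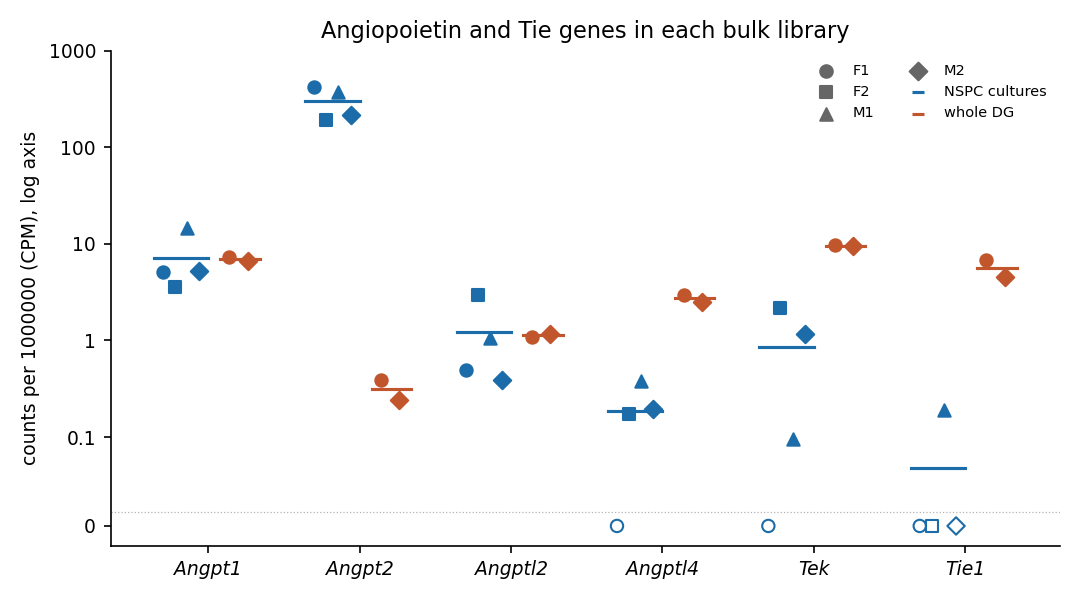
Level of each gene in counts per 1000000 (CPM, log axis) in the 4 NSPC cultures (blue) and 2 whole DG libraries (orange); the symbol gives the library, the horizontal line the group mean, and open symbols below the dotted line are libraries with 0 counts. Angpt2 stands at 191 to 422 CPM in cultures against 0.243 and 0.387 CPM in whole DG, Tek and Tie1 are high in the tissue, and the groups overlap for Angpt1 and Angptl2.

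To compare genes with each other, counts were divided by exon length and scaled to transcripts per 1000000 (TPM). In the cultures the order by mean was Angpt2, Angpt1, Angptl2, Tek, Angptl4 and Tie1. Angpt2 was at 353, 157, 325 and 171 TPM in F1, F2, M1 and M2, and ranked from 476th to 1275th among 47674 genes. Angpt1 followed at 2.07 to 9.11 TPM, below every Angpt2 value and above every Angptl2 value (0.183 to 1.42 TPM). The ranges of Angptl2, Tek (0 to 1.39 TPM) and Angptl4 (0 to 0.348 TPM) overlapped, as did those of Angptl4 and Tie1 (0 to 0.125 TPM), so these neighbours are not separated.

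The order in whole DG differed, with Angpt1 again second and Angpt2 last. Tek was first at 7.22 and 7.21 TPM, followed by Angpt1 at 4.88 and 4.53 TPM and Tie1 at 4.89 and 3.26 TPM, and the last 2 overlapped. Angptl4 (2.95 and 2.51 TPM), Angptl2 (0.614 and 0.654 TPM) and Angpt2 (0.369 and 0.235 TPM) came below, each separate from the next. Angpt2 ranked between 21122nd and 22320th there. Using the longest transcript in place of the exon union left the order of means in both groups as it was.

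The balance of the 2 ligands was opposite in the groups. On the length-scaled values, Angpt2 stood at 116, 75.9, 35.7 and 57.3 times Angpt1 in cultures F1, F2, M1 and M2. In whole DG, Angpt1 stood at 13.2 and 19.3 times Angpt2 in F1 and M2. The summed angiopoietins exceeded the summed Tie receptors 114-fold, 1754-fold and 238-fold in cultures F2, M1 and M2, and culture F1 had no receptor counts. These quotients are imprecise because receptor counts were few: Tek and Tie1 had 25 and 0 in F2, 1 and 2 in M1, and 12 and 0 in M2. The same quotient was 0.433 and 0.455 in whole DG, where the receptors outweighed the ligands. These ratios restate the levels above and were not tested.

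**Figure D2:**
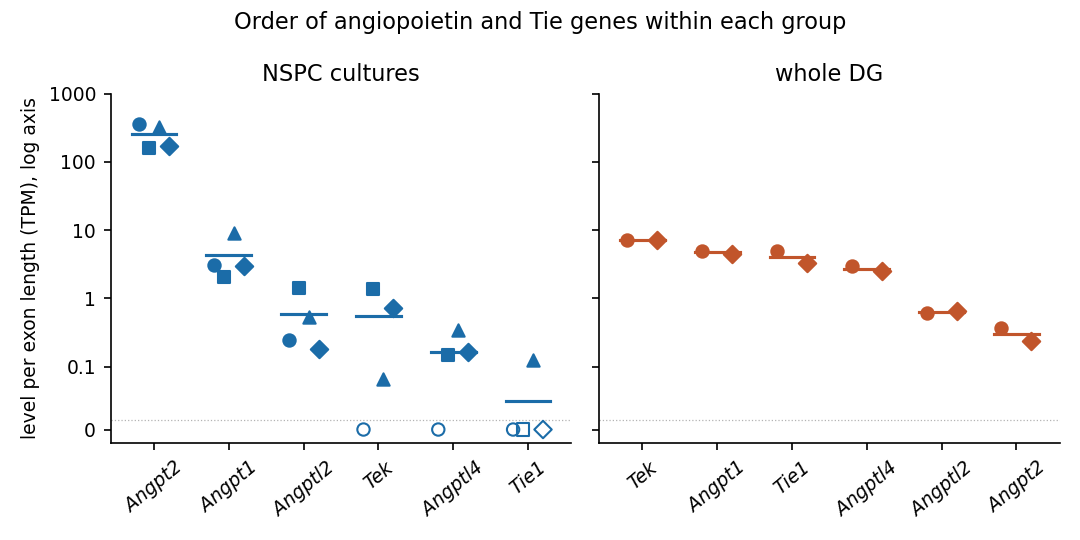
Level per exon length (TPM, log axis) of the 6 genes, ordered by mean within the NSPC cultures (left) and within whole DG (right); symbols give libraries F1 (circle), F2 (square), M1 (triangle) and M2 (diamond), lines are group means and open symbols are 0 counts. Angpt2 leads in the cultures at 157 to 353 TPM and comes last in whole DG, where Tek leads at 7.21 and 7.22 TPM.

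Of the 6 genes, 3 overlap another annotated gene on the opposite strand, and the sources used here do not say whether the counting used strand. Angpt2 (ENSMUSG00000031465, chr8:18690263-18741562, minus strand) lies wholly inside Mcph1, a gene of chromosome condensation and DNA repair on the plus strand, with 0 shared exon bases. Mcph1 had 149, 242, 157 and 190 counts in cultures F1, F2, M1 and M2 and 222 and 231 in whole DG, and did not pass the test (log2 difference 0.23, edgeR adjusted p = 0.397). Its counts were of like size in both groups while those of Angpt2 went from 10 in the tissue to 13408 in the cultures. As the genes share 0 exon bases, Mcph1 counts do not measure reads from its introns over Angpt2 exons. The part of such reads in the Angpt2 counts was not tested.

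Angptl2 (ENSMUSG00000004105, chr2:33216069-33247717, plus strand) lies inside Ralgps1, a regulator of Ral GTPases, again with 0 shared exon bases. Ralgps1 was lower in cultures (374, 260, 313 and 312 counts) than in whole DG (1019 and 1199 counts; log2 difference -1.29, SE 0.16, edgeR adjusted p = 0.000134). Angpt1 (chr15:42424723-42676977, minus strand) shares 737 of 5205 exon bases with the antisense gene Gm17473, which had 3 to 6 counts in every library. Those counts do not bound the effect of the overlap on Angpt1, because the treatment of strand and of shared reads is not known. Angptl4 (chr17:33773750-33781830, minus strand), Tek (chr4:94739289-94874976, plus strand) and Tie1 (chr4:118471191-118490061, minus strand) overlap no other annotated gene.

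The sexes were compared within the 4 cultures, a contrast that played no part in choosing the genes. By edgeR's quasi-likelihood test, 0 of the 4 genes with enough counts were called, and 0 had an unadjusted p under 0.05. None was called in the alternatives that gave an adjusted p. DESeq2 gave none for Angptl2 and Tek, and Tek was not tested without F2. Over all genes 4 of 15140 were called (0.0264%), 942 had an unadjusted p under 0.05, and DESeq2 called 60. Angpt1 averaged 4.34 CPM in the female and 9.99 CPM in the male cultures (log2 female minus male -1.21, SE 0.54, edgeR adjusted p = 0.801, range over alternatives 0.152 to 1), with both females below M1 but F1 close to M2. Without M1 the log2 difference was -0.29. Angpt2 averaged 307 CPM in females and 293 CPM in males (log2 0.057, SE 0.42, edgeR adjusted p = 0.989, range 0.865 to 1). Its spread lay between cultures of the same sex.

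Angptl2 had a log2 difference between sexes of 1.23 (SE 0.97, edgeR adjusted p = 0.872, range 0.685 to 1), and -0.53 without F2. Tek had 0.75 (SE 1.61, edgeR adjusted p = 0.953, range 0.744 to 1), and -0.14 without M1. With standard errors of this size the sexes could differ by amounts that 2 cultures each cannot show. Angptl4 and Tie1 had too few counts in the cultures for a test.

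The genes whose pattern over the 6 bulk libraries was most like each gene were found by the root mean square difference of centred log2 CPM, in which 0 means the same pattern. For Angpt2 they were Raet1e, a ligand of the NKG2D receptor (0.57, 49.6 CPM in cultures and 0 in whole DG), Cdc6, a replication licensing factor (0.58, 50.3 against 0.0627 CPM), and Peg12 (0.65, 104 against 0.188 CPM). For Tek they were Thbs4 (0.60), Dchs2 (0.77) and St8sia6 (0.80), and for Angptl4 they included Tmem196 (0.18) and Ugt8a (0.27). For Tie1 they were Cd53 (0.024), Slco4c1 (0.061) and Ncf1 (0.088), all with the same culture mean of 0.0478 CPM as Tie1. For Tie1 that mean comes from 2 counts in M1 and 0 in F1, F2 and M2, so this likeness rests on culture counts near 0. Cd53 and Ncf1 are leukocyte genes. Ctsz (0.20), 1700028E10Rik (0.22) and Fmo5 (0.23) came closest to Angpt1, and RP23B2.5 (0.25), Hapln3 (0.26) and Cela1 (0.34) to Angptl2. The 6 points share 2 groups, 2 kits and the library depths, and ranking by Pearson's correlation instead kept none of the 3 genes for Angpt1, Angpt2 and Tek and 1 of 3 for Angptl2 and Angptl4.

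In single cells the 4 genes followed stood in the same order as in the bulk cultures. The library held 14912 cells, each with its own barcode, with 2001 to 8531 molecules (unique molecular identifiers, UMIs) per cell. UMIs count molecules at the 3′ end, so no length scaling was applied. Angpt2 had 4140 UMIs, or 66.3 per 1000000 (95% counting interval 64.3 to 68.4). Angpt1 had 143 UMIs (2.29 per 1000000, 1.93 to 2.70), Angptl2 had 13 (0.208, 0.111 to 0.356) and Tek had 10 (0.160, 0.0768 to 0.295). Angpt2 and Angpt1 were separated by their counting intervals, whereas those of Angptl2 and Tek overlapped. There was 1 library and its 3 cultures cannot be told apart, so no test across samples was possible and the intervals cover counting error only.

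Angpt2 was spread over the whole population rather than held by a few cells with many molecules. A UMI was found in 3387 of 14912 cells (22.7%): 2786 cells had 1, 490 had 2, 85 had 3, 16 had 4 and 10 had 5 or more, with a maximum of 7 in a cell of cluster 0. The variance of the count per cell was 1.19 times its mean over all cells, and between 1.12 and 1.35 times within clusters, where counting noise alone at equal depth gives a value of 1. The median depth was 4048.5 UMIs per cell, so most of the 11525 cells without an Angpt2 UMI are not shown to lack the transcript. The library held no cell type that should lack Angpt2, so the share that free RNA can give was not measured.

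The deposited clusters, numbered 0 to 5, held 3925, 3297, 3260, 1910, 1428 and 1092 cells. They are called here by number and by abundant genes that were higher in each than in the rest. Less abundant genes could stand further above the rest. The genes were Apoe, Thrsp and Aldoc in cluster 0, Cenpa, Cdc20 and Cdca3 in cluster 1, and Hist1h2ap, Rrm2 and Pclaf in cluster 2. They were Nasp, Olig1 and Rbmxl1 in cluster 3, Ube2c, Prc1 and Cenpf in cluster 4, and Atf5, Eif4ebp1 and Sars in cluster 5. Those of clusters 1 and 4 are genes of mitosis, and those of cluster 2 are genes of DNA synthesis. In cluster 5, Atf5 and Eif4ebp1 are genes of the amino acid stress response. Clusters were made from all genes, Angpt2 among them, and are described without a test.

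Angpt2 was detected in every cluster, at 78.0 UMIs per 1000000 in cluster 0 (73.6 to 82.6), 59.3 in cluster 1 (55.0 to 63.9), 58.3 in cluster 2 (54.6 to 62.3), 56.6 in cluster 3 (51.5 to 62.0), 64.2 in cluster 4 (58.6 to 70.3) and 93.6 in cluster 5 (85.0 to 103). Cluster 5 was highest and cluster 0 next, both above clusters 1 to 4, whose intervals overlapped. After every cell was thinned to 2000 UMIs, the levels were 78.0, 56.7, 56.6, 57.9, 70.0 and 88.4 per 1000000 in clusters 0 to 5. The intervals of clusters 0 and 5 then overlapped (71.9 to 84.4 and 76.3 to 102), and so did those of clusters 0 and 4 (60.7 to 80.4 in cluster 4).

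The share of cells with an Angpt2 UMI was 24.3%, 18.1%, 22.7%, 20.4%, 25.7% and 31.1% in clusters 0 to 5, at median depths of 3749, 3431, 4731, 4127, 5270.5 and 4086 UMIs. Thinned to 2000 UMIs the shares were 13.9%, 10.4%, 10.2%, 11.0% and 12.5% in clusters 0 to 4, and 175 of 1092 cells held a UMI in cluster 5. Clusters 2 and 4, the deepest, moved down in the order with thinning, and clusters 5 and 0 led it. The gene around Angpt2 on the other strand, Mcph1, had a different order over the clusters. Its highest level was in cluster 2 (11.6 UMIs per 1000000) and its lowest in cluster 5 (1.97). Whether Mcph1 transcripts add to the Angpt2 UMIs was not tested.

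**Figure D3:**
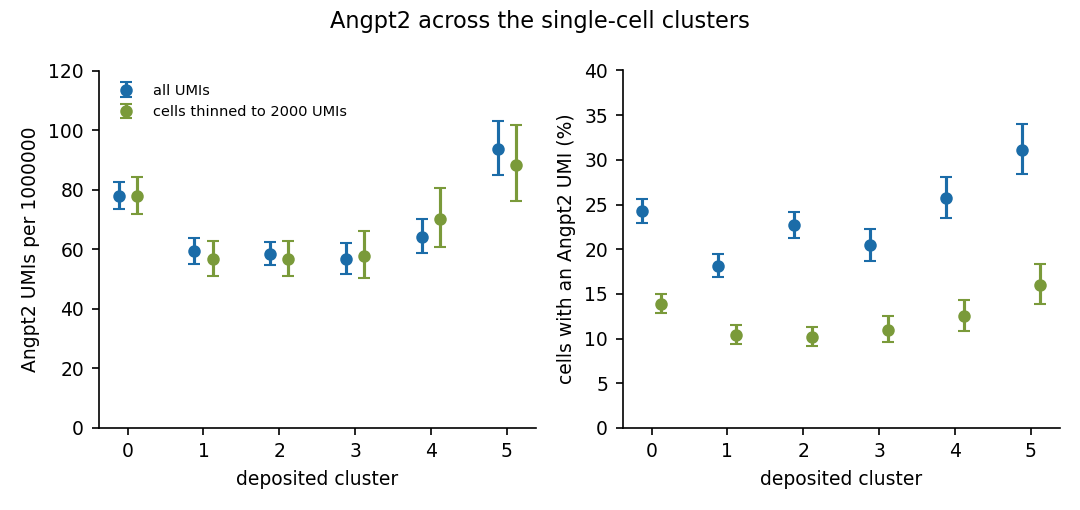
Angpt2 UMIs per 1000000 (left) and the percentage of cells with an Angpt2 UMI (right) in the 6 deposited clusters of 1 library, with all UMIs (blue) and with cells thinned to 2000 UMIs (green); bars are 95% intervals for counting error only. Cluster 5 and cluster 0 are highest in both panels after thinning, at 88.4 and 78.0 UMIs per 1000000.

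The genes closest to Angpt2 in their pattern over the 6 clusters were Zfp467 and Prnp (root mean square difference 0.051 each, in log2) and Alyref2 (0.062). Prnp, the prion protein gene, was likewise highest in clusters 5 and 0: 171 UMIs per 1000000 in cluster 5, 135 in cluster 0 and 99.5 to 114 in the other 4. Ranking by Pearson's correlation named 3 other genes.

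Angpt1 was seen in 143 cells with 1 UMI each (0.959% of cells), at 1.54 to 2.83 UMIs per 1000000 across the clusters, with overlapping intervals. It was found in 39 of the 3387 cells with an Angpt2 UMI (1.15%, 0.820% to 1.57%) and in 104 of the 11525 cells without one (0.902%, 0.738% to 1.09%). These intervals overlapped, and the former cells were deeper, with a median of 4364 against 3962 UMIs. Angptl2 UMIs were found in 13 cells and Tek UMIs in 10 cells, spread over all clusters for Angptl2 and over clusters 0 to 4 for Tek. Cluster 5 had 0 Tek UMIs in 1092 cells, which allows a share of up to 0.275% of cells with a UMI (a floor of 3 cells) and does not limit the share that express it. One of the 10 cells with Tek and 119 of the 3387 with Angpt2 (3.51%) also held a UMI of an endothelial marker, against 500 of all 14912 cells (3.35%).

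Markers of the cells in which Tek and Tie1 normally reside moved with the receptors in bulk. All 12 endothelial markers were called lower in the cultures, against 41.7% of all genes tested. Their summed level was 7.45 to 17.7 CPM against 163 and 169 CPM in whole DG. Cldn5, a tight junction gene of brain endothelium, had 0 counts in every culture, and Cdh5 (VE-cadherin) had 1, 1, 0 and 0. The 2 markers with the highest mean CPM over the 6 libraries, Flt1 and Slco1a4, had log2 differences of -4.63 (SE 0.49) and -3.75 (SE 0.28). In single cells the 10 endothelial markers with data summed to 8.24 UMIs per 1000000. The part of cell makeup in the levels of Angpt2, Tek and Tie1 was not tested.

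Mural cells are the contractile cells around vessels and a known source of Angpt1. Of their 10 markers 9 were tested, and 6 were called lower and 1 higher in the cultures. Their summed level was 21.7 to 50.7 CPM against 108 and 126 CPM. For this and the other marker lists here, the background was 41.7% lower and 35.6% higher of all genes tested. The gene called higher was Notch3, at 27.6 CPM ± 8.93 (SD, n = 4) against 7.95 CPM ± 1.84 (SD, n = 2; edgeR adjusted p = 0.00182). Notch3 is also expressed by neural progenitors. Rgs5, a pericyte gene, averaged 0.794 CPM against 43.2 CPM. All 6 markers of microglia and all 5 of fibroblasts were called lower in the cultures. Of the microglial markers, Cx3cr1 had 1 count in the 4 cultures together and Csf1r averaged 10.9 CPM against 85.9 CPM in whole DG. The fibroblast genes Dcn and Col1a2 averaged 0.948 CPM and 0.457 CPM against 11.2 CPM and 6.84 CPM. All 5 oligodendrocyte markers were called lower. Of the 6 astrocyte markers 5 were called lower and Aldh1l1 higher, at 288 CPM ± 192 (SD, n = 4) against 49.2 CPM ± 3.58 (SD, n = 2; edgeR adjusted p = 0.00922), a call that was lost without either whole DG library and with no filter on low counts.

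Genes that act downstream of Tek or regulate it were taken from a list of 26, of which 24 were tested: 10 rose in the cultures, 12 fell and 2 were not called. Over all genes tested, 35.6% rose and 41.7% fell. The median log2 difference of the list was -0.95, against -0.13 over all genes tested. Ptprb, the phosphatase that dampens Tek (VE-PTP), was at 1.94 CPM ± 0.586 in cultures and 17.9 CPM ± 3.41 in whole DG (SD, n = 4 and 2; log2 -3.19, SE 0.31, edgeR adjusted p = 2.87e-05). Nos3, endothelial nitric oxide synthase, fell by 4.33 on the log2 scale (adjusted p = 7.43e-05). Klf2, a flow-responsive transcription factor of endothelium, fell by 6.24 (adjusted p = 1.21e-05). It had 10.9 CPM in the tissue and 6 counts in the cultures together. Ptprb, Nos3 and Klf2 were at 2.69, 1.47 and 4.95 UMIs per 1000000 in the single-cell library. Their bulk culture means were 1.94, 0.273 and 0.137 CPM. Klf2 had 309 UMIs in 296 cells, so its low bulk counts do not show that cultured cells lack it. The cause of this gap was not tested.

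Signalling genes that many cell types share moved in both directions. The adaptor Shc1 rose from 6.40 CPM to 113 CPM (log2 4.14, edgeR adjusted p = 6.61e-07), while the adaptor Grb2 fell from 168 CPM to 13.9 CPM (log2 -3.59, adjusted p = 8.14e-07). Of the Akt kinases, Akt1 fell from 187 CPM to 18.6 CPM (log2 -3.33, adjusted p = 1.51e-07). Akt2 rose slightly, from 102 CPM to 138 CPM (log2 0.43, SE 0.13, adjusted p = 0.016), and was not past the threshold with DESeq2's size factors (adjusted p = 0.0517) or without whole DG M2 (adjusted p = 0.159). Foxo1, the transcription factor that Tek signalling restrains through Akt and that drives Angpt2 in endothelium, fell from 116 CPM to 6.16 CPM (log2 -4.25, adjusted p = 2.96e-06). Single-cell levels of Grb2, Akt1 and Foxo1 were 48.7, 92.1 and 10.8 UMIs per 1000000, above their bulk culture means. Those of Shc1, Akt2 and Ptpn11 were 14.1, 25.2 and 65.9, below their bulk culture means. Akt1 was thus above Akt2 in single cells and below it in the bulk cultures. The low bulk levels of Grb2 and Akt1 do not show that cultured cells have little of them. The cause of these gaps was not tested. Ptpn11 (SHP2) was at 136 CPM against 203 CPM (log2 -0.57, adjusted p = 0.00567) and was not past the threshold without whole DG F1 (adjusted p = 0.0552).

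Itgb1 and Itga5, subunits of an integrin that can bind Angpt2 without Tek, rose. Itgb1, the β1 subunit, was at 1459 CPM ± 17.8 (SD, n = 4) in cultures and 43.6 CPM ± 8.52 (SD, n = 2) in whole DG (log2 5.07, SE 0.18, edgeR adjusted p = 1.93e-07). Itga5, the α5 subunit that pairs with it, was at 41.2 CPM ± 8.79 and 1.13 CPM ± 0.136 (log2 5.18, SE 0.31, adjusted p = 1.91e-06). In single cells Itgb1 had 384 UMIs per 1000000 and Itga5 had 3.91. Svep1, a matrix protein that binds Tie1, mentioned here with its values already known, had 7.89 CPM ± 3.86 against 1.34 CPM ± 0.0762 (log2 2.54, adjusted p = 0.00627). The number of list genes that rose was 6, not 10, when either whole DG library was left out.

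**Figure D4:**
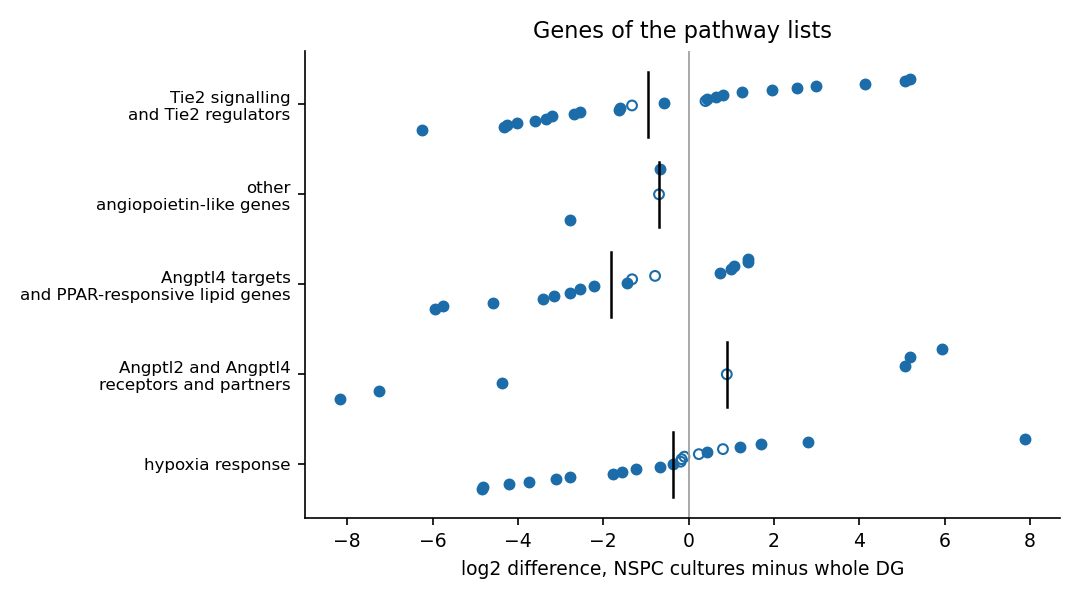
Log2 difference, cultures minus whole DG, of every tested gene of the 5 pathway lists; filled points passed the edgeR threshold (adjusted p of 0.05), open points did not, vertical bars are list medians, and Cldn5, with 0 counts in all cultures, is drawn at its bound. The Tie2 list runs from Klf2 at -6.24 to Itga5 at 5.18, with 10 genes called higher and 12 lower.

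The rest of the angiopoietin-like family was low, with none called higher. Of 6 entries, 3 were tested. Shares called over all genes tested were 35.6% higher and 41.7% lower. Angptl6 was at 9.59 CPM ± 1.43 (SD, n = 4) against 15.4 CPM ± 1.57 (SD, n = 2; log2 -0.68, edgeR adjusted p = 0.0168), and this call was lost without either whole DG library (adjusted p = 0.0607 and 0.151). Angptl1 was at 1.12 CPM against 1.81 CPM and did not pass the test (adjusted p = 0.153).

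Around Angptl4, the list of lipase targets and of lipid genes that answer to PPAR nuclear receptors had 16 of 19 entries tested. Of these 5 rose, 9 fell and 2 were not called, with a median log2 difference of -1.83. The background of all genes tested was 35.6% higher and 41.7% lower, with a median of -0.13. Fabp4, a fatty acid carrier of endothelium and fat, was at 0.348 CPM against 21.7 CPM (log2 -5.95, edgeR adjusted p = 5.09e-06). Pdk4 fell by 3.15 and Fabp3 by 3.42 on the log2 scale (adjusted p = 2.78e-05 and 0.000462). The receptor gene Ppard was at 0.713 CPM against 17.1 CPM (log2 -4.58, adjusted p = 4.8e-06). Pdk4, Fabp3 and Ppard were at 0.192, 2.68 and 6.75 UMIs per 1000000 in the single-cell library. Their bulk culture means were 2.77, 3.05 and 0.713 CPM, so of these only Ppard was higher in single cells. The cause of that difference was not tested. The enzymes of fatty acid oxidation Acadvl (144 against 54.9 CPM, adjusted p = 2.91e-05) and Acadm (log2 1.06, adjusted p = 0.000254) rose. Cpt1a, which brings fatty acids into mitochondria, was at 47.1 CPM against 28.1 CPM (adjusted p = 0.0374) and lost its call without either whole DG library.

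Receptors and partners of Angptl2 and Angptl4 had 7 of 10 entries tested: 3 rose, 3 fell and 1 was not called. Their median log2 difference was 0.89. Against this, 35.6% of all genes tested rose and 41.7% fell, with a median of -0.13. Besides Itga5 and Itgb1, Sdc1, a heparan sulfate proteoglycan, rose from 1.28 CPM ± 0.256 (SD, n = 2) to 79.4 CPM ± 21.0 (SD, n = 4; log2 5.94, edgeR adjusted p = 2.48e-06). Sdc4 was at 110 CPM ± 42.5 against 59.5 CPM ± 9.33 and did not pass (adjusted p = 0.0649), although it did without culture M2 (adjusted p = 0.000396) and with upper quartile factors (adjusted p = 0.0337). The integrin subunit Itgb5 fell from 43.2 CPM to 2.05 CPM (log2 -4.38, adjusted p = 5.52e-06). The other genes that fell were the endothelial junction genes described above: Cdh5 (log2 -7.25, adjusted p = 8.1e-06), with 2 counts in the cultures, and Cldn5, at least 290-fold lower in the cultures when 3 counts over the group are taken as the floor (adjusted p = 1.97e-05).

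Angpt2 and Angptl4 are both known as genes induced by low oxygen, and here they differed in opposite directions. The hypoxia list was split as well: of 21 tested genes of 22, 5 rose, 11 fell and 5 were not called. Its median log2 difference was -0.38. Among all genes tested 35.6% rose and 41.7% fell, with a median of -0.13, so a split is not particular to this list. Adm, a vasoactive peptide, had 2043, 1055, 880 and 1140 counts in cultures F1, F2, M1 and M2 and 10 and 5 in whole DG (log2 7.89, SE 0.50, edgeR adjusted p = 2.55e-06), with no overlap. Ldha (1555 against 223 CPM, adjusted p = 1.61e-06) and Hif1a (307 against 94.4 CPM, adjusted p = 8.67e-06) rose too, and Pgk1 did not pass (404 against 342 CPM, adjusted p = 0.117, but 0.017 with upper quartile factors).

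Other targets of the same response fell. Ndrg1 (log2 -4.83, edgeR adjusted p = 4.27e-05), Ankrd37 (log2 -4.21, adjusted p = 0.00183), Ddit4 (log2 -3.75, adjusted p = 1.11e-06) and Egln1 (log2 -3.10, adjusted p = 8.7e-07) were lower in the cultures. P4ha2 was lower as well (log2 -4.83, adjusted p = 0.002), with 11 counts in culture F2 and 0 in the other 3 against 116 in each whole DG library, and it did not pass with DESeq2 (adjusted p = 0.108). In single cells the genes of the hypoxia list summed to 1894 UMIs per 1000000, with 1773 in the lowest and 2021 in the highest cluster. Ndrg1, Ankrd37, Ddit4 and Egln1 were at 0.352, 1.03, 26.1 and 99.7 UMIs per 1000000 there. Their levels in the bulk cultures were 1.21, 0.146, 7.01 and 12.2 CPM. The kit, the passage in culture and the growth factors differed between the groups together. Their parts in the differences between cultures and whole DG cannot be told apart.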

How the data were processed

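For the 4 culture and 2 whole DG libraries, gene counts were used as the authors deposited them, as whole numbers without normalization. HISAT2 2.0.6, featureCounts of Subread and CASAVA 1.8.2 are listed in the submitters' processing notes, with the assembly GRCh38, although the symbols are of mouse genes. The sources used here do not give the treatment of strand or of shared reads. For single cells, the authors deposited the natural log of 1 plus a UMI count scaled to the cell's total. Cell Ranger 3.1.0 and Seurat 3.1.0 are named in the submitters' processing notes, and the labels' protocol gives other versions of both.

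The groups were compared with edgeR 4.0.16 (R 4.3.3), by its robust quasi-likelihood F test after TMM scaling and edgeR's own filter on low counts. P-values were adjusted by Benjamini and Hochberg's method over all genes tested, with a threshold of 0.05 and no covariate. CPM use TMM library sizes. The labels call the cultures separate; p-values reflect the spread among them and, in the tissue, between 2 mice. Sexes were compared in the 4 cultures likewise. Gene positions and lengths came from GENCODE M21 on GRCm38, whose symbols matched 47674 of 50600 entries (94.2%). UMI counts were recovered from the log values, with 100% within 0.01 of a whole number. Levels have exact Poisson and shares exact Clopper-Pearson intervals. Doublets were not removed. The test was checked on simulated data.

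The 6 genes and all lists (5 of pathway genes and 8 of cell type markers) were chosen with earlier results of these data known. Named from each pathway list were the 3 most abundant genes and any called gene with an absolute log2 difference of at least 3, and from each marker list the 2 most abundant. For each of the 6 genes the 3 genes of nearest pattern (mean of at least 1 CPM, or 200 UMIs) and every overlapping gene were named. Genes outside these rules were picked with their values in view: Angpt4, Svep1 and Sox2. Some genes that the rules name are left out of the text. Alternatives were other scalings and filters, DESeq2 1.42.0, a fold threshold of 2, thinned depth, leaving out each library, and a replicate block.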

Additional observations from a re-analysis of the deposited data

Results flagged for a closer look

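In 5 of 62 genes examined over the 4 cultures, 1 library stood apart from the other 3 by a share of the whole range that chance exceeds in about 5% of groups (Dixon's 95% critical value). That chance does not hold for the genes whose other 3 cultures were all at 0 (Tie1, Cx3cr1 and P4ha2), where any count stands apart. Angpt1 was at 14.7 CPM in culture M1, against 3.55 to 5.27 CPM in the other 3. Tie1 was at 0.191 CPM in M1, from 2 counts, and at 0 in the other 3. Cx3cr1, a microglial gene, was at 0.0955 CPM in M1, from 1 count, and at 0 in the other 3 cultures. P4ha2 was at 0.954 CPM in culture F2, from 11 counts, and at 0 in the other 3. Ralgps1, the gene around Angptl2, was at 22.5 CPM in F2 against 29.9 to 30.9 CPM in the other 3, and F2 was also the culture with the most Angptl2 counts. The causes of these gaps were not tested.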

How the results depend on the processing

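Scaling moved the median log2 difference of all genes from -0.13 (TMM) to -0.23 with DESeq2's size factors and to 0.054 with upper quartile factors. Over these scalings and the other alternatives, Angpt2 stayed between 9.56 and 10.2, Angpt1 ran from -0.57 to 0.28 and Angptl2 from -1.29 to 0.41, and Angptl4, Tek (-4.54 without culture F2) and Tie1 stayed lower in cultures. With the libraries named F1 or M2 alone, Angptl2 was at -1.28 and Tie1 at -9.25, and with a replicate block on those names at -1.29 and -9.28. Deviations of same-named libraries correlated at 0.0366 and 0.0454 across genes, no label says that the names pair them, and no pairing was assumed. The block gave 13677 calls against 13976. Leaving out 1 library at a time gave Tie1 from -9.22 (without culture M1) to -6.29, 3 to 81 genes called between the sexes, 6 to 10 Tie2 genes that rose, 0 to 1 other angiopoietin-like genes that rose and 0 to 2 that fell, and 3 to 5 lipid genes that rose. DESeq2 called 60 genes between the sexes, and edgeR called 273 without a filter on low counts. When a fold above 2 was asked, 6 Tie2 genes, 2 lipid genes and 3 hypoxia genes rose and 1 other angiopoietin-like gene fell. That last count was also 1 with upper quartile factors, with libraries F1 and M2 alone and with the replicate block, and with no filter 1 gene of that list (Angpt4) rose. Fewer samples or genes enter several of these fits, and other causes were not tested. Counts under 10 in some or all libraries of a group limit Tie1, Angptl4, Tek and Angptl2 in the cultures and Angpt2 in whole DG.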
